A study of Mus musculus with 6 samples.

Results

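The WNK and SGK kinases and their partners were followed in mouse heart as a set of 10 genes: the WNK kinases Wnk1, Wnk2 and Wnk4, the kinases they switch on (Oxsr1 and Stk39), the chloride cotransporters Slc12a2 and Slc12a4, the kinase Sgk1, the mineralocorticoid receptor Nr3c2 and the glucocorticoid-inactivating enzyme Hsd11b2. The genes were grouped by known function, and the set was selected on the lower value of Wnk2 in the same comparison. All Wnk2 differences are therefore given as a description without p-values. Counts of probe sets called in limma include Wnk2 where stated, and nothing is read from its call. On Affymetrix whole-genome arrays, 18 probe sets were annotated to exactly 1 of these 10 genes, out of 18193 genes with a probe set of their own. After a filter on dim probe sets 14 of the 18 were kept, from 9 of the 10 genes. Hsd11b2, at log2 2.67 ± 0.17 (SD, n = 3) against 2.54 ± 0.04, lay below the filter (a mean of log2 3.285 over the 6 arrays) and was not tested.

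The series held 6 arrays of heart RNA, 3 from C57BL/6 mice labelled as overexpressing hAT1R, the human type 1 angiotensin II receptor, and 3 from normal C57BL/6 mice. The comparison asked which transcripts differ in hearts that carry the receptor transgene. The series text calls the samples age and gender matched. Neither the age nor the promoter that drove the transgene is given in the sources used here. Nothing in the labels says that the 3 arrays of a group came from separate animals. By their Xist values each group held both sexes, so its arrays did not all come from a single animal. The p-values reflect only how much these arrays vary, part of which may be technical.

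WNK kinases are large serine/threonine kinases that respond to chloride and cell volume. They phosphorylate the related kinases SPAK (encoded by Stk39) and OSR1 (encoded by Oxsr1), which in turn activate sodium-coupled chloride import and inhibit potassium-chloride export. SGK1 is a kinase whose gene is induced by corticosteroids acting through the mineralocorticoid and glucocorticoid receptors, and it raises the number of sodium channels and other transporters at the membrane.

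Facts of the whole series that bear on these genes were as follows. The word typed into the chip lot field of the instrument record was "control" on all 3 arrays labelled transgenic and "transgene" on all 3 labelled non-transgenic. The sample labels were followed throughout, hence the wording "labelled transgenic"; had the typed words been used, every sign would turn. The human transgene had no probe set of its own among those analysed and could not check the labels. Each group held both sexes by Xist. It was between 9.48 and 9.69 on labelled transgenic arrays 1 and 3 and on non-transgenic array 2. On the others it was between 2.49 and 3.01. The sexes were thus not evenly split, with more high-Xist arrays in the labelled transgenic group. Fluidics station 2 washed the 3 labelled transgenic arrays together with array 1 of the other group, and station 3 washed non-transgenic arrays 2 and 3. The labelled transgenic arrays were also the first 3 to be scanned, so scan order and group cannot be told apart. All 8 cardiomyocyte markers were kept, and the lowest of them had a mean of log2 13.59.

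Sequence upstream of the transcribed region is shown for Stk39 and Slc12a4, the 2 members besides Wnk2 whose groups did not overlap, and for Sgk1, the hormone-induced kinase. The stretches are the bases of the RefSeq promoter windows (GRCm38.p6) that lie before the widest RefSeq span of the gene, 5′ to 3′ on the gene's strand. Capitals mark the GC box GGGCGG and the steroid receptor half-site AGAACA, each on either strand. The Stk39 stretch is chr2:68472109-68472231 on the minus strand, that of Slc12a4 is chr8:105966150-105966365 on the minus strand, and that of Sgk1 is chr10:21881934-21882183 on the plus strand.
Stk39: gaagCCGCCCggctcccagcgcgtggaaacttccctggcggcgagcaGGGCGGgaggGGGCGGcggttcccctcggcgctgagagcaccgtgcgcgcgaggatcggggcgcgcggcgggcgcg
Slc12a4: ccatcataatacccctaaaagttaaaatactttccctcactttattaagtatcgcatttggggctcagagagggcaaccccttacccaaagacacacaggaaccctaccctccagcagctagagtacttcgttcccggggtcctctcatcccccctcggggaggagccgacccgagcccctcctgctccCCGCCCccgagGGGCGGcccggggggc
Sgk1: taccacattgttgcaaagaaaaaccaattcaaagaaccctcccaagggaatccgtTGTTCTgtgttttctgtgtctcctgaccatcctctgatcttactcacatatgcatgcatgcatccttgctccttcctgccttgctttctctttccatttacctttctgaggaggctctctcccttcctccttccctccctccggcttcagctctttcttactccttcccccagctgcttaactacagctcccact

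The Stk39 stretch held 3 GC boxes and that of Slc12a4 held 2, while neither held the half-site. The Sgk1 stretch held 1 half-site and no GC box. Over the 32851 RefSeq windows of 250 bases before a start, 32.7% held a GC box and 16.1% the half-site. These shares are for whole windows, and the printed stretches of Stk39 and Slc12a4 are shorter. Their whole windows held 4 GC boxes for Stk39 and 3 for Slc12a4. Windows of members whose groups overlapped held GC boxes too, with 4 for Wnk1, 3 for Wnk4, 3 for Nr3c2 and 1 for Oxsr1. The whole 250-base window of Stk39 held 43 CG dinucleotides, against a median of 6 over all windows, and 99.3% of windows held fewer. Of the 10 members 8 had a window, all but Slc12a2 and Hsd11b2. The window of Wnk2 held 5 CG dinucleotides, no GC box and no half-site, and 246 of its 250 bases lay inside the widest RefSeq span of the gene, so it is not printed. Sgk1 had 6 windows, and the printed stretch is the first, the farthest upstream. The fourth held 1 half-site, and the fifth held 3 half-sites and 1 GC box. The sixth, at chr10:21994416-21994665 and so far from the printed stretch, held 4 GC boxes and 22 CG dinucleotides. Windows 2 to 6 lay wholly inside the widest RefSeq span of the gene. These matches describe the letters and do not show binding.

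Wnk2 had the largest difference of the set and was the value that chose it. Its brightest probe set (1453355_at) was at log2 8.28, 8.36 and 8.20 on labelled transgenic arrays 1 to 3 and at 9.14, 9.19 and 9.01 on the non-transgenic ones. The 3 labelled transgenic values lay close together and well below the 3 others. The difference was -0.84 ± 0.08 (log2, moderated SE), which is 1.79-fold lower. The second Wnk2 probe set (1455424_at) was dim, at 3.49, 3.84 and 3.77 against 4.35, 4.09 and 3.88, a difference of -0.40 ± 0.15. Its groups did not overlap either, although array 2 of the labelled transgenic group and array 3 of the other were only narrowly apart. The last Wnk2 probe set (1443423_at) was below the filter, at 1.68 against 1.67. With the fluidics station as a block the brightest probe set was at -0.86 and the dim one at -0.65. Station 3 held arrays of 1 group only, so a difference with the station as a block is, by construction, that within station 2, where 3 labelled transgenic arrays stand against non-transgenic array 1 alone. All station values given here rest on that 1 array as the control.

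The other WNK kinases were measured on the same arrays. Wnk1, the broadly expressed WNK kinase, was at 12.74, 12.87 and 13.03 on the labelled transgenic arrays and at 12.83, 12.89 and 12.87 on the others (probe set 1433676_at). The non-transgenic values all fell within the range of the labelled transgenic ones. The difference was 0.02 ± 0.09, with a 95% interval from -0.20 to 0.24 (limma, adjusted p = 0.941). The sign of this value turned with median centring, to -0.01, and with labelled transgenic array 3 left out, to -0.05. A second Wnk1 probe set (1436746_at) was at -0.03 ± 0.11 (adjusted p = 0.926), and another (1437888_at) lay below the filter at 2.25 against 2.14.

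Wnk4, a WNK kinase best known from the kidney tubule, was at 6.05, 6.07 and 5.90 against 6.18, 6.04 and 6.06. The groups overlapped. Its difference was -0.09 ± 0.08 with a 95% interval from -0.28 to 0.11 (limma, adjusted p = 0.644). No test set Wnk1 or Wnk4 against Wnk2, because Wnk2 was chosen for its value.

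**Figure D1:**
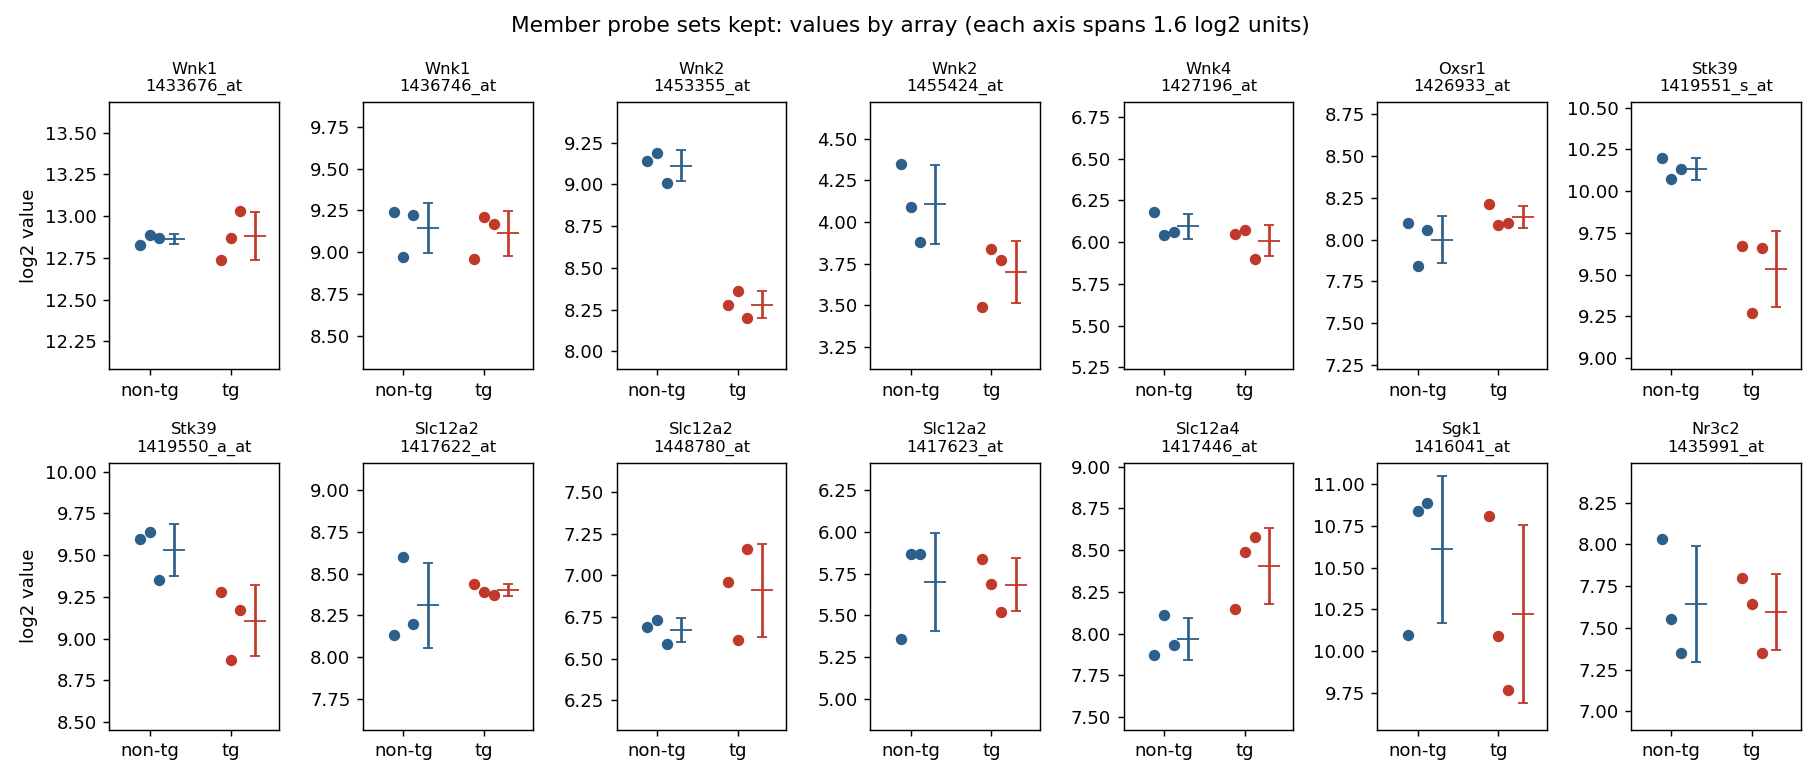
Log2 values of the 14 member probe sets kept, 1 panel each, with the 3 non-transgenic arrays (non-tg, blue) and the 3 labelled transgenic arrays (tg, red) as points and the mean ± SD beside them. Every axis spans 1.6 log2 units. The groups are apart for both Wnk2 and both Stk39 panels (labelled transgenic lower) and for Slc12a4 (higher).

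Downstream of the WNK kinases, all Stk39 values of the labelled transgenic arrays lay below those of the others, while those of Oxsr1 overlapped. Stk39, which encodes the kinase SPAK, was at 9.67, 9.27 and 9.66 on the labelled transgenic arrays and at 10.20, 10.07 and 10.13 on the others (probe set 1419551_s_at). All 3 labelled transgenic values lay below the lowest non-transgenic one, and labelled transgenic array 2 was the lowest. The difference was -0.60 ± 0.12, or 1.52-fold lower, with a 95% interval from -0.90 to -0.30. It did not pass over all probe sets (limma, adjusted p = 0.116, unadjusted p = 0.00275). Over the 19 alternative settings its adjusted p ran from 0.0805 to 0.284 and its difference from -0.67 to -0.47.

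The second Stk39 probe set (1419550_a_at) gave 9.28, 8.87 and 9.17 against 9.60, 9.64 and 9.35. Its groups were also apart, by less, and labelled transgenic array 2 was again the lowest. The difference was -0.42 ± 0.14 (adjusted p = 0.223). The brighter of these probe sets carries the suffix that Affymetrix gives to sets that may also match related transcripts, and the other the suffix for sets that match several transcripts of a gene. The remaining Stk39 probe set (1431434_at) was below the filter, at 2.75 in both groups. With the station as a block the 2 kept probe sets were at -0.67 and -0.50.

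Oxsr1, which encodes OSR1, the close relative of SPAK, was at 8.21, 8.09 and 8.10 against 8.10, 7.84 and 8.06. The groups overlapped, since labelled transgenic array 2 lay below non-transgenic array 1. The difference was 0.13 ± 0.09 with a 95% interval from -0.09 to 0.36 (limma, adjusted p = 0.529). The difference between Oxsr1 and Stk39 was not tested.

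Of the cotransporters, the potassium-chloride exporter Slc12a4 (KCC1) had higher values on the labelled transgenic arrays and the sodium-potassium-chloride importer Slc12a2 (NKCC1) overlapped. Slc12a4 was at 8.15, 8.49 and 8.58 against 7.87, 8.11 and 7.93. Labelled transgenic array 1 lay only just above the highest non-transgenic array, so the groups were narrowly apart. The difference was 0.44 ± 0.13, or 1.36-fold, with a 95% interval from 0.11 to 0.77, and it did not pass (limma, adjusted p = 0.202). It was 0.54 with the station as a block.

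Slc12a2 had 3 kept probe sets. The brightest (1417622_at) was at 8.44, 8.39 and 8.37 against 8.13, 8.60 and 8.20, with the labelled transgenic values between the extremes of the other group. Its difference was 0.09 ± 0.13 (limma, adjusted p = 0.784). The others were at 0.24 ± 0.15 (1448780_at, adjusted p = 0.474) and -0.02 ± 0.17 (1417623_at, adjusted p = 0.974). With the station as a block these 3 were at 0.27, 0.23 and 0.32, so the sign of the last turned. None of them passed in that fit.

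Sgk1 stood out by its spread within groups rather than by a difference between them. It was at 10.81, 10.09 and 9.77 on labelled transgenic arrays 1 to 3 and at 10.10, 10.84 and 10.89 on the non-transgenic ones. Labelled transgenic array 1 and non-transgenic arrays 2 and 3 were high, and the other 3 arrays low. The pooled SD within groups was 0.49 (log2), against a median of 0.14 over the 22518 probe sets kept, and 97.0% of them had a smaller one. The main Wnk2 probe set had a pooled SD of 0.09. The difference for Sgk1 was -0.39 ± 0.33 with a 95% interval from -1.18 to 0.41 (limma, adjusted p = 0.608). With single arrays left out it ran from -0.68, without labelled transgenic array 1, to -0.16, without labelled transgenic array 3. Its sign turned to 0.12 with the station as a block, and both high non-transgenic arrays were the ones washed on station 3.

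Nr3c2, the mineralocorticoid receptor, was at 7.80, 7.64 and 7.35 against 8.03, 7.55 and 7.35. The groups overlapped over most of their range. The difference was -0.05 ± 0.20 with a 95% interval from -0.54 to 0.44 (limma, adjusted p = 0.93). It was -0.44 with the station as a block, where non-transgenic array 1, the highest of the 6, is the only control, and 0.14 without that array. The pooled SD of 0.29 exceeded that of 86.3% of probe sets.

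**Figure D2:**
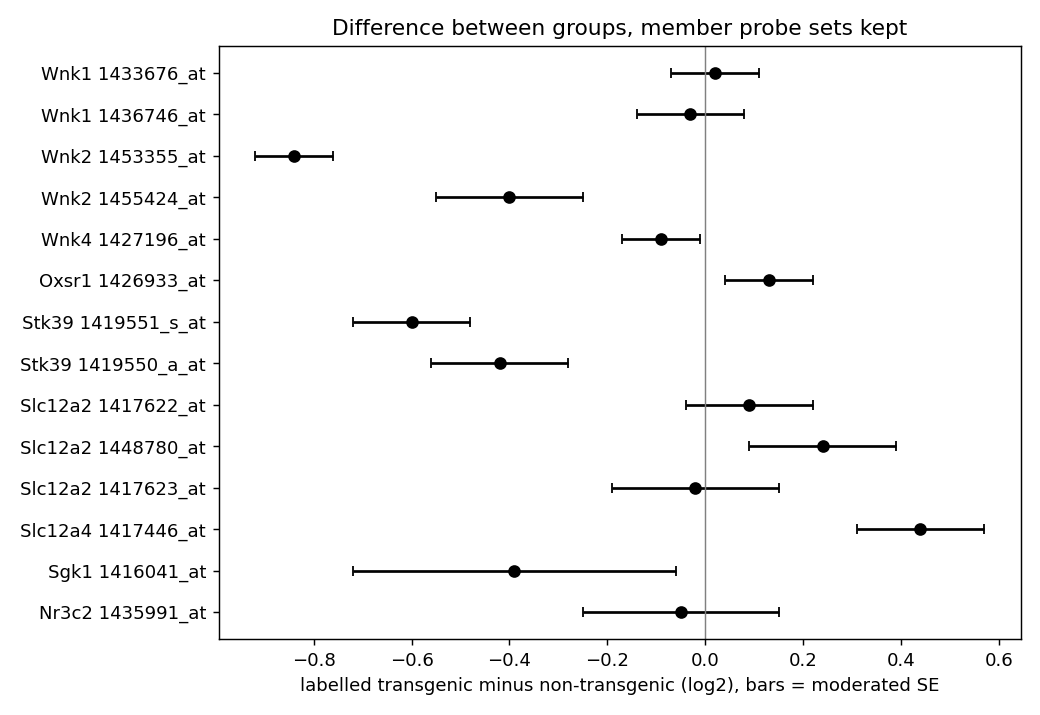
Difference between the labelled transgenic and non-transgenic means (log2) of the 14 member probe sets kept, with moderated standard errors from limma. The brightest Wnk2 probe set lies at -0.84 and that of Stk39 at -0.60, Slc12a4 at 0.44, and the Wnk1, Wnk4 and Nr3c2 points near 0.

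Counted over the set, limma called 1 of the 14 probe sets kept at an adjusted p under 0.05, that of Wnk2, lower in the labelled transgenic group. Over all 22518 probe sets 0.218% were called in either direction and 0.0400% lower. Since Wnk2 chose the set, nothing is read from this count. Without Wnk2, none of the 12 probe sets kept was called, and 3 of the 12 were at an unadjusted p under 0.05 in limma, the 2 of Stk39 and that of Slc12a4, against 16.4% of all probe sets. The labelled transgenic values all lay below the others in 2 of these 12, where 9.78% of all probe sets did, and all above in 1, where 13.2% did. The median difference of the 9 genes kept, each by its brightest probe set, was -0.05. That of all probe sets was 0.010. The 9 include Wnk2, which chose the set, so nothing is read from this median. In the smaller fits with any 1 of the 6 arrays left out no member probe set was called (2 to 5 at an unadjusted p under 0.05 in limma). The difference of the brightest Wnk2 probe set ran from -0.89 to -0.80 in these fits. The same arrays chose Wnk2, so nothing is read from that range.

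Of 35 markers of cardiac cell types kept, none passed in limma, and 15 were at an unadjusted p under 0.05. Among these 15 were all 6 fibroblast and all 6 macrophage markers. Over all probe sets kept, 16.4% were under 0.05 unadjusted in limma. Of the 35 markers 13 were higher without overlap and 4 lower, against 13.2% and 9.78% of all probe sets. The summed level of 6 fibroblast markers was log2 13.85 to 14.04 on the labelled transgenic arrays and 13.42 to 13.50 on the others, and 5 of the 6 did not overlap. That of 6 macrophage markers was 12.35 to 12.55 against 11.84 to 12.06, and all 6 were higher without overlap. The 8 cardiomyocyte markers summed to 18.36 to 18.39 against 18.39 to 18.43, with 3 of the 8 lower without overlap. Of the nerve and glia markers 2 of 4 on the array were kept (S100b and Tubb3 were not), and both were higher without overlap. The summed level of all 4 was 7.39 to 7.89 against 6.94 to 7.12. The 6 endothelial markers overlapped, at 11.54 to 11.76 against 11.58 to 11.75. So did the 6 smooth muscle and pericyte markers in their sum, at 13.77 to 13.86 against 13.74 to 14.05, with 1 lower without overlap. Epcam alone of 6 epithelial and mesothelial markers was kept, and Cdh1, Krt18, Krt19, Upk3b and Msln were below the filter. The 3′ minus 5′ difference of the actin control was 0.80 to 0.94 against 0.97 to 1.05, with no overlap, while that of the Gapdh control overlapped, at 0.11 to 0.12 against 0.11 to 0.16. The part of these markers and of RNA quality in the values of Wnk2, Stk39 and Slc12a4 was not tested. In bulk tissue, fewer cells of a type and less RNA per cell cannot be told apart.

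None of the other pathway genes tested passed in either direction. Of 12 further WNK pathway and cotransporter genes 10 were on the array and 7 were tested. None passed in limma, and none was under 0.05 unadjusted. Their median difference was -0.00, with a range from -0.27 to 0.02. Slc12a9, an orphan member of the cotransporter family, was at -0.27 ± 0.17 (adjusted p = 0.493), or -0.66 with the station as a block. Cab39l, a scaffold that helps activate SPAK and OSR1, was at -0.12 ± 0.08 (adjusted p = 0.502), with all 3 labelled transgenic values below the others. Wnk3 and the renal cotransporters Slc12a1 and Slc12a3 were below the filter.

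Of 15 genes of SGK activation and its targets 11 were tested and none passed in limma, with 1 under 0.05 unadjusted. Their median was -0.02, with a range from -0.27 to 0.29. Ndrg1, a substrate of SGK1, was at 8.98, 8.96 and 9.09 against 8.63, 8.79 and 8.74, and the groups were apart. Its difference was 0.29 ± 0.08 (adjusted p = 0.167). Foxo3, a transcription factor that SGK1 phosphorylates, was at -0.27 ± 0.16 (adjusted p = 0.46), and at -0.02 with the station as a block. Sgk2 and the epithelial sodium channel genes Scnn1a, Scnn1b and Scnn1g lay below the filter.

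Of 18 genes of corticosteroid receptors and their targets 17 were on the array and 15 were tested. None passed in limma, and 1 was under 0.05 unadjusted. That 1 was Nr3c1, the glucocorticoid receptor, at 10.03, 9.98 and 10.38 against 9.91, 9.61 and 9.53, named after its value was seen. Its difference was 0.45 ± 0.15 (adjusted p = 0.231). The 15 had a median of -0.06 and a range from -0.92 to 0.78. The extremes were Fkbp5, a steroid-induced chaperone of the receptors, at -0.92 ± 0.85 (adjusted p = 0.642), and Serpina3n, a secreted protease inhibitor, at 0.78 ± 0.71 (adjusted p = 0.634). Fkbp5 turned to 0.69 with the station as a block, and ran from -1.73 to -0.27 with single arrays left out. Serpina3n gave 0.33 in that block fit, and leaving out single arrays moved it between 0.08 (labelled transgenic array 1 removed) and 1.54 (labelled transgenic array 3 removed). Cyp11b1 and Cyp11b2, the enzymes of corticosteroid synthesis, were below the filter.

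**Figure D3:**
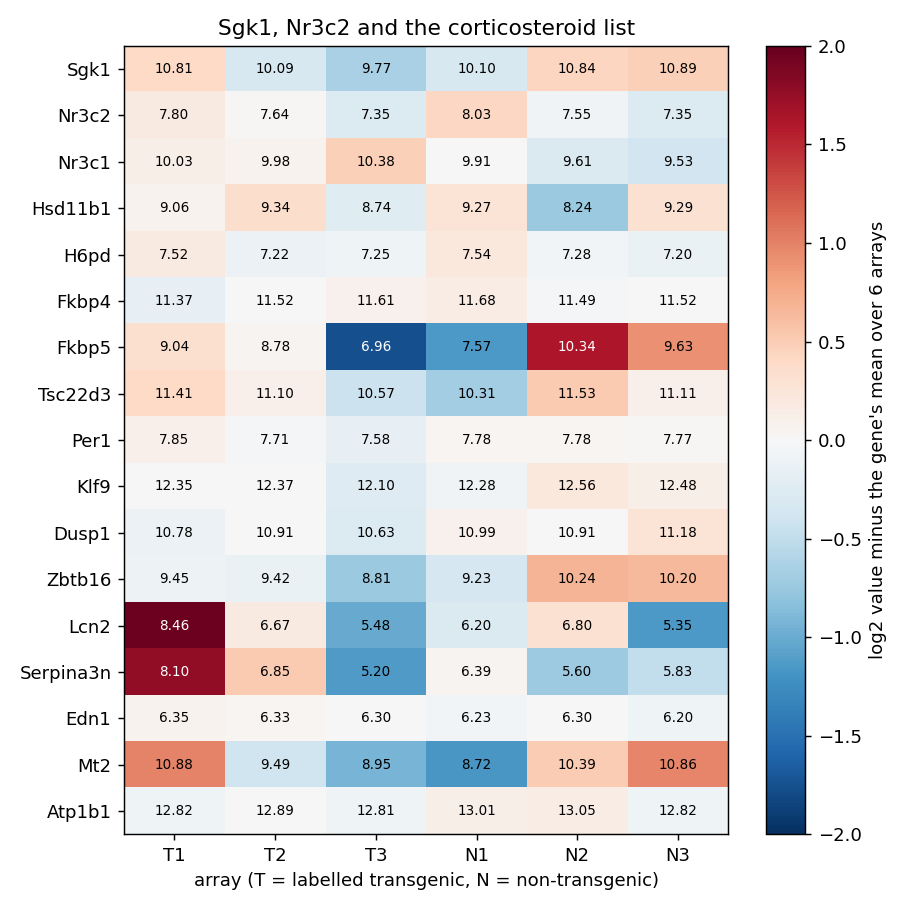
Log2 values (printed) of Sgk1, Nr3c2 and the 15 tested genes of the corticosteroid list on the 6 arrays, coloured by distance from each gene's mean. Sgk1 runs from 9.77 to 10.89 and Fkbp5 from 6.96 to 10.34, with high and low arrays in both groups.

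The 5 genes outside the set whose values ran most like those of the brightest Wnk2 probe set over the 6 arrays were Birc6 (Pearson r = 0.996), A430046D13Rik (0.996), Uqcr11 (0.995), Mlxip (0.993) and Med13 (0.992). With 6 arrays in 2 groups this likeness mostly restates a gap between the groups, and no p is given. The gaps were smaller than that of Wnk2, at -0.11 for Birc6, an inhibitor of apoptosis, -0.38 for A430046D13Rik, -0.14 for Uqcr11, a subunit of respiratory complex III, -0.20 for the glucose-responsive transcription factor Mlxip and -0.33 for the Mediator subunit Med13.

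**Figure D4:**
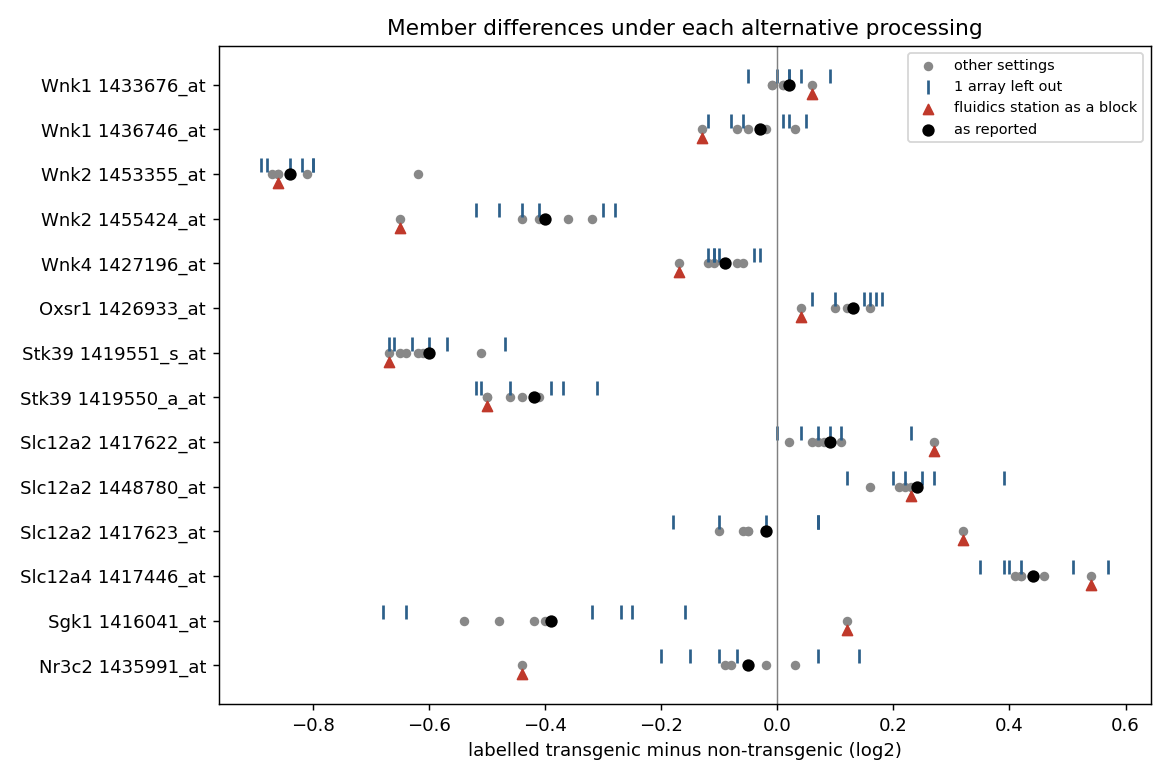
Difference between groups (log2) of each member probe set kept under every alternative: as reported (black), with 1 array left out (blue ticks), with the fluidics station as a block (red triangles) and under the other settings (grey). The Wnk2, Stk39, Wnk4, Oxsr1 and Slc12a4 points keep their side of 0, while Sgk1 crosses it with the station as a block. Nothing is read from the Wnk2 points, since Wnk2 chose the set.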

How the data were processed

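Heart RNA of 6 arrays in 2 groups of 3 was compared. The deposited values were log2 values made with GCRMA, per the submitters' processing notes (version not given in the sources used here), and were used as deposited, 1 per probe set and array. The other deposited records hold instrument settings, from which only station, scan order and the lot word were read. Of 45101 probe sets 64 controls were left out. The platform annotation of 2016 gave the gene names, and all 18 member probe sets had a gene ID in the RefSeq table of GRCm38.p6. Probe sets were filtered on brightness, keeping those with a 6-array mean over the median of such means, log2 3.285. The 22518 kept were tested in R 4.3.3 with lmFit and eBayes of limma 3.58.1 (2-sided, Benjamini-Hochberg over all probe sets, threshold 0.05). SE means limma's moderated standard error. A fit with known changes was checked on simulated data. The number of arrays limits the precision.

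The members and lists were chosen with earlier results of these data known. Named were every member, up to 2 genes of each pathway list (those that passed, or else the largest differences) and the 5 genes most like Wnk2. The further corticosteroid genes given with values, Nr3c1 among them, fall outside this rule and were named after their values were seen. A few of the listed genes were not analysed here. The alternatives covered filter, normalization, variance model, array weights, replicate number or station as a block, station 2 alone, the Xist level as a term, the choice of probe set and each array left out.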

Additional observations from a re-analysis of the deposited data

How the results depend on the processing

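The count of 49 probe sets called over the whole array depended on the setting. It was 15 with no filter, 143 with a mean above log2 5, 108 with an intensity trend, 2 with the station as a block, 0 within station 2 (3771 at an unadjusted p under 0.05 in limma) and 0 when Xist was a term of the model (3126 unadjusted). With single arrays left out it ran from 0 to 75. The count of 1 member called is Wnk2, which chose the set, so nothing is read from its changes. It was 0 in 12 of the 19 alternatives. Among these were no filter (5 unadjusted), the Xist term (4 unadjusted) and probe sets averaged by gene (3 unadjusted). The station as a block gave 0 too (4 unadjusted). With any 1 array left out it was also 0 (2 to 5 unadjusted). These unadjusted counts include Wnk2. In the replicate block fit both counts were 0 (3324 and 4 unadjusted). The replicate numbers did not pair the arrays: same-numbered arrays had correlations of deviations of -0.083, -0.174 and -0.007. No pathway gene was called under any alternative (1 to 4 unadjusted).

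The brightest Wnk2 probe set ran from -0.89 to -0.80 with single arrays left out, and the mean of the gene's kept probe sets was -0.62. Since Wnk2 chose the set, nothing is read from these values. Of 255 recomputed member differences 17 turned sign, in 5 probe sets. Wnk1 (1433676_at) was at -0.01 with median centring and with probe sets averaged, and from -0.05 to 0.09 with arrays left out. Wnk1 (1436746_at) was at 0.03 with the Xist term and from -0.12 to 0.05. Nr3c2 was at 0.03 with array weights and from -0.20 to 0.14. Slc12a2 (1417623_at) gave 0.32 in the station block and, as the same contrast by construction, within station 2, and from -0.18 to 0.07. In those same fits Sgk1 gave 0.12 and Fkbp5 0.69. The causes were not tested.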

Other observations

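The spread between arrays of the same group, large for Sgk1, was uneven over the 15 tested genes of the corticosteroid list. The pooled SD within groups was above the median of all probe sets (0.14) in 10 of the 15 and at least that of Sgk1 (0.49) in 5, namely Fkbp5, Lcn2, Serpina3n, Mt2 and Tsc22d3. It was small for others, at 0.04 for Edn1, 0.09 for Atp1b1, 0.10 for Per1 and 0.11 for Fkbp4. Fkbp5 was at 9.04, 8.78 and 6.96 on labelled transgenic arrays 1 to 3 and at 7.57, 10.34 and 9.63 on the non-transgenic ones. Tsc22d3, the steroid-induced leucine zipper GILZ, was at 11.41, 11.10 and 10.57 against 10.31, 11.53 and 11.11. Both were low on labelled transgenic array 3 and non-transgenic array 1. The metallothionein Mt2 was at 10.88, 9.49 and 8.95 against 8.72, 10.39 and 10.86, with the same 2 arrays lowest. Zbtb16, a zinc finger transcription factor, was at 9.45, 9.42 and 8.81 against 9.23, 10.24 and 10.20. These 2 arrays were the lowest in 5 of the 15 genes, Klf9 being the other. Neither Lcn2 nor Serpina3n followed this order. Lcn2, a secreted lipocalin, was at 8.46, 6.67 and 5.48 against 6.20, 6.80 and 5.35. Serpina3n was at 8.10, 6.85 and 5.20 against 6.39, 5.60 and 5.83. These genes were picked out after their values were seen, and neither the sex of the animals nor the station was tested as a source of the spread.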
